A study of Mus musculus with 13 samples.

Results

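Endothelial cells line the inside of blood vessels, and 35 genes used as their markers were followed in brown adipose tissue, the heat-producing fat. The members are the rows of the deposited count table that carry 1 of 35 gene symbols and hold 10 or more counts over the 13 libraries. All 35 symbols met that rule, out of 55357 genes in the table and 15669 with 10 or more counts. A total of 34 passed the filter for testing, and Ecscr did not, with 60 counts in all and 2 to 9 in a library.

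The endothelium of brown fat carries fuel, oxygen and heat to and from the adipocytes, and its density and state are known to respond to thermogenic demand. Its identity is held by transcription factors of the ETS, SOX and KLF families. These act on genes for junction proteins that seal the vessel wall, for receptors of growth factors, lipids and flow, and for enzymes such as the one that makes nitric oxide. Several of these markers are shared with other cells: Cd34 is also known from fat progenitors, Tal1 from blood cell precursors, Aqp1 from red blood cells, Vwf from platelets and Ly6c1 from some leukocytes.

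The mice carried floxed alleles of Stim1 and Stim2, the calcium sensors of the endoplasmic reticulum. In KO mice, labelled Stim1/2_Adp-Cre, Cre recombinase was driven by the adiponectin promoter, so the deletion was aimed at adipocytes and not at the endothelium. Control mice, labelled Stim1/2_fl/fl, carried the floxed alleles without that label. Tissue was taken after 6 h at 4 °C (cold) or at room temperature (RT), giving 4 libraries for control cold, 4 for KO cold, 2 for control RT and 3 for KO RT. The labels give no age, sex or strain. The labels do not tie each library to an animal of its own. A p-value here therefore covers the spread between these libraries, which may be technical.

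Libraries held 1570684 to 2016178 counts, each count being a tag read at the 3′ end of an mRNA, and 15506 to 17061 genes were detected. Levels are given as CPM, the counts scaled to a common library size and for composition. Stim1 was at 62.0 to 108 CPM and Stim2 at 13.5 to 29.7 CPM in the KO libraries, against 114 to 149.9 and 29.0 to 54.5 CPM in control. Each KO library was below each control library of its temperature for both genes, although a 3′ tag need not lie in the deleted part. Ucp1, the uncoupling protein that defines brown adipocytes, was at 2436 CPM or more in each library. In each library every one of the 35 members had at least 1 count. Members were admitted by their counts over these same libraries, so this does not test the endothelial label. Kdr and Flt1, receptors for vascular endothelial growth factor that are not members, were at 258 CPM or more and 209 CPM or more.

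At RT, 3 libraries stood apart in their content of skeletal muscle transcripts. The summed level of 10 muscle genes was 2106 CPM in control RT 1, 1276 CPM in KO RT 1 and 844 CPM in KO RT 2. It was 18.7 CPM in control RT 2 and 76.1 CPM in KO RT 3, and 0.612 to 261 CPM in the 8 cold libraries. Comparisons of cold with RT are therefore also given without the first 3 of these libraries, which leaves 1 RT library a genotype, assumed to vary like the other groups. That setting was chosen after the data were seen.

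Cold changed a minority of the endothelial markers, in both directions. In control, 10 of 34 tested members passed the test (29.4%), 7 higher and 3 lower in cold. Among all 11073 genes tested, 25.2% passed, 12.7% higher and 12.6% lower. In KO, 9 of 34 passed (26.5%), 8 higher and 1 lower, against 18.9% of all genes, 9.43% higher and 9.45% lower. A gene passed where the adjusted p (Benjamini-Hochberg, over all genes tested) of edgeR's quasi-likelihood test was under 0.05. By direction, 20.6% of members were higher and 8.82% lower in control, and 23.5% and 2.94% in KO. The shares in total lie near those of all genes. In both genotypes the share higher lies above its counterpart and the share lower lies below it. A departure of the markers as a set was not tested, and these shares are no result about it. The median log2 fold change, cold over RT, was 0.14 for the members and -0.02 for all genes in control, and 0.09 and -0.01 in KO. Scaled by library totals alone, without composition, 5 members rose and 4 fell in control, where all genes split into 789 higher and 2335 lower (1401 and 1392 with composition scaling), and 7 rose and 1 fell in KO, with 750 and 1455 of all genes (1044 and 1046). That scaling shifts the median of all genes by -0.211 in control and -0.111 in KO and turns the members' median to -0.07 and -0.03. The members' median was 0.04 without control RT 1 and 0.27 without control RT 2 in control. In KO it was 0.03 without KO cold 2, 0.29 without KO RT 2 and 0.15 without KO cold 4, and 0.13 without KO cold 1. In bulk tissue, fewer endothelial cells and less RNA per cell cannot be told apart.

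Of the 34 tested members, 7 passed in the same direction in both genotypes, compared with 13% of all genes. Sox17, Pecam1, Esam, S1pr1, Eng and Rgcc rose and Nos3 fell. A further 3 passed in control and not in KO (Sox18, Tie1 and Emcn), and Ly6c1 and Adgrl4 passed in KO and not in control. The test of the difference between both cold responses, given below, was passed by none of these. Fewer members passed with fewer RT libraries. Without control RT 1, 3 of 34 passed in control (Nos3, Sox17 and Sox18), against 9.25% of all genes. Without the 3 RT libraries high in muscle transcripts, 1 of 34 passed in control (Nos3) and 1 in KO (Ly6c1), against 7.71% and 4.01% of all genes.

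**Figure D1:**
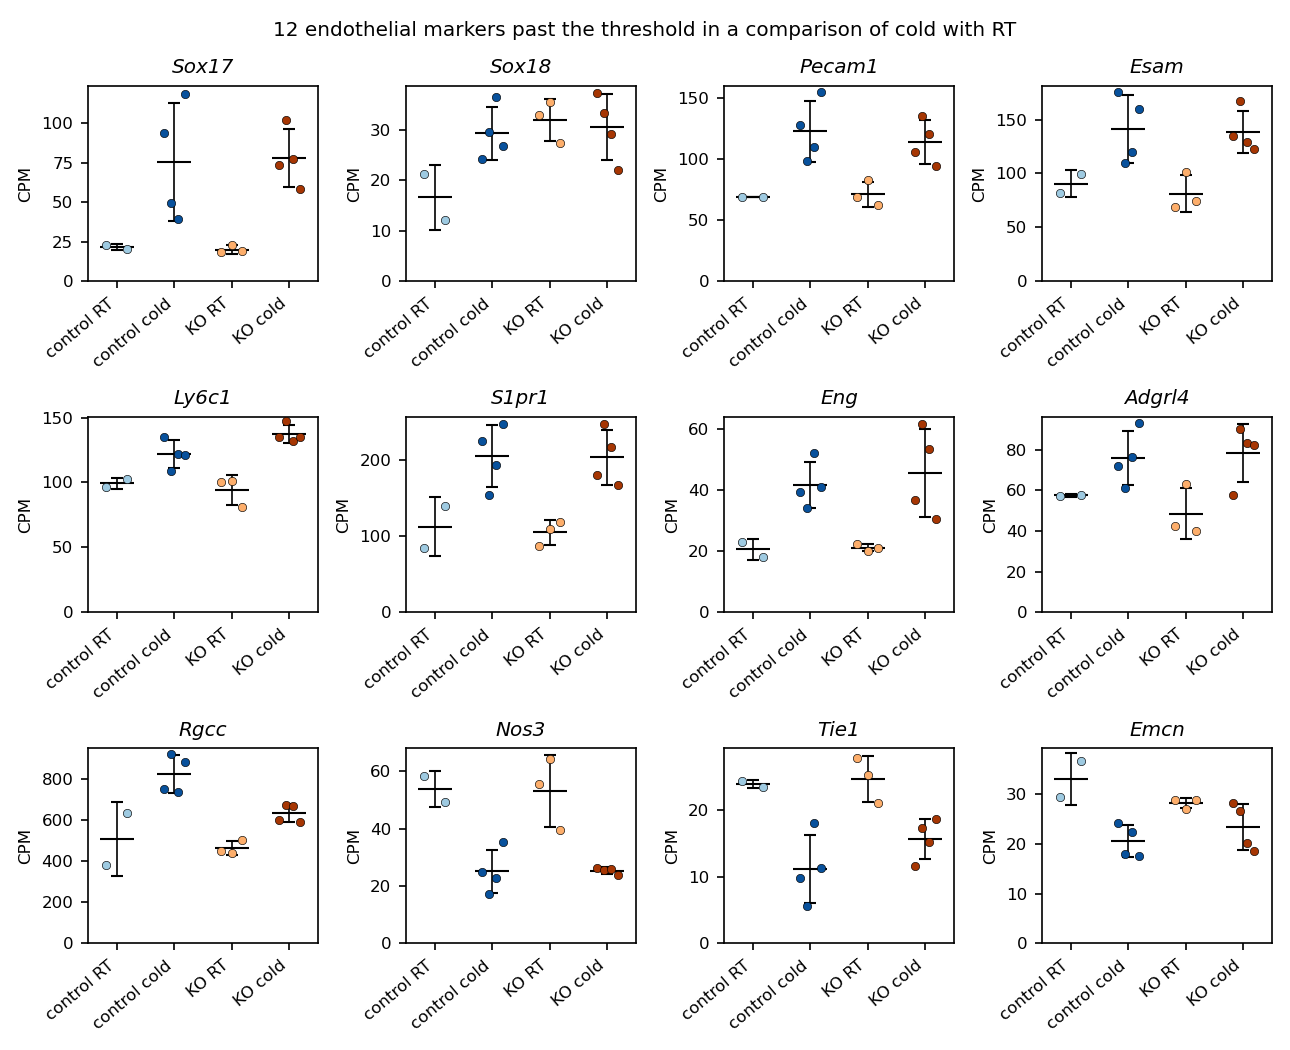
Levels in CPM (y axis, from 0) of the 12 markers that passed in cold against RT, by group (x axis). Points are libraries, horizontal lines group means and bars SD. Sox17 lay between 39.6 and 119 CPM in the 8 cold libraries and between 18.2 and 23.0 CPM in the 5 RT libraries, and Nos3 showed the opposite order.

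Transcription factors of the endothelium held the member with the highest fold change. Sox17, an SRY-box factor of arterial endothelium (ENSMUSG00000025902.14, chromosome 1), gave, in the order of library number here and below, 93.9, 49.4, 39.6 and 119 CPM in the 4 libraries of control cold and 23.0 and 20.5 CPM in the pair of control RT. Among KO libraries the cold ones read 73.4, 102, 77.6 and 58.1 CPM and those at RT 18.2, 23.0 and 18.9 CPM. Each cold library was above each RT library, and the cold libraries of control spread more widely than those of KO. Sox17 rose 3.43-fold in control (log2 1.78 ± 0.38, standard error, adjusted p = 0.00284) and 3.90-fold in KO (1.96 ± 0.33, adjusted p = 0.000577). Without the 3 RT libraries high in muscle transcripts Sox17 was at 1.86 in control (adjusted p = 0.0525) and at 2.04 in KO (adjusted p = 0.0506).

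Sox18, its relative of lymphatic and blood vessel development (ENSMUSG00000046470.6, chromosome 2), gave 24.2, 29.7, 36.5 and 26.8 CPM in the 4 libraries of control cold and 21.2 and 12.1 CPM in the pair of control RT. KO mice had 37.3, 33.4, 29.3 and 22.0 CPM after cold and 32.9, 35.6 and 27.3 CPM at RT. The 2 control RT libraries were the lowest of the 13, and the KO groups overlapped. Sox18 rose in control (0.79 ± 0.27, adjusted p = 0.0396) and was at -0.07 ± 0.21 in KO (adjusted p = 0.864). Without control RT 2 the value in control was 0.48 (adjusted p = 0.279), and with library totals in place of composition scaling the adjusted p was 0.128. The Sox18 call was also lost without control cold 2 (0.0611), control cold 3 (0.0862), KO cold 3 (0.0507) or KO RT 1 (0.0528).

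The other 5 factors did not pass in either genotype. Tal1, a factor of blood and endothelial precursors, had the lowest value in control (log2 -0.93 ± 0.43, adjusted p = 0.116), from 2.82 to 6.81 CPM in cold against 8.28 and 6.63 CPM at RT, with overlap, and it passed without control cold 3. Klf2, the factor induced by blood flow, gave 147, 127, 132 and 183 CPM in the control cold libraries and 52.9 and 169.9 CPM in the control RT libraries, so that 1 RT library lay below all cold libraries and the other within them. Klf2 passed in control without control RT 2. KO libraries gave 129.7 to 141 CPM after cold and 79.5, 172 and 143 CPM at RT. The ETS factors Erg and Fli1, which keep endothelial identity, were at -0.24 ± 0.35 and -0.34 ± 0.20 in control and -0.18 ± 0.30 and -0.34 ± 0.18 in KO (log2, cold over RT). Sox7, the third SOX factor of the list, was at -0.19 ± 0.36 in control and -0.43 ± 0.31 in KO.

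Among 10 junction and surface molecules, Pecam1 and Esam rose in both genotypes. Pecam1, the CD31 adhesion molecule of endothelial contacts (ENSMUSG00000020717.20, chromosome 11), gave 128, 98.2, 109.7 and 155 CPM in the 4 libraries of control cold and 69.0 and 68.7 CPM in the pair of control RT. The KO libraries gave 106, 136, 120.4 and 94.8 CPM after cold and 68.9, 82.6 and 62.5 CPM at RT. No cold library overlapped an RT library. Pecam1 rose 1.78-fold in control (0.83 ± 0.20, adjusted p = 0.00549, or 0.0542 without control RT 1) and 1.60-fold in KO (0.68 ± 0.17, adjusted p = 0.00971). Without the 3 RT libraries high in muscle transcripts it was at 0.83 in control (adjusted p = 0.0725) and 0.87 in KO (adjusted p = 0.0884).

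Esam, an adhesion molecule of tight junctions (ENSMUSG00000001946.15, chromosome 9), gave 176, 110.0, 120.2 and 160.2 CPM in the 4 libraries of control cold and 81.8 and 99.4 CPM in the pair of control RT. Among KO libraries the cold ones read 135, 167, 129 and 123 CPM and those at RT 68.9, 101 and 74.0 CPM. Cold and RT libraries did not overlap in either genotype. Esam rose in control (0.65 ± 0.21, adjusted p = 0.0331) and in KO (0.77 ± 0.18, adjusted p = 0.00750). The control call was lost without control RT 1 (adjusted p = 0.257), control cold 1 (0.0863) or control cold 4 (0.0662), and the KO call without KO RT 1 (0.0520).

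Ly6c1, a surface protein of capillary endothelium (ENSMUSG00000079018.11, chromosome 15), gave 135, 147, 132 and 135 CPM in the 4 libraries of KO cold and 100.3, 101 and 80.8 CPM in the 3 of KO RT. Control libraries gave 135, 109, 122 and 121 CPM after cold and 96.1 and 102 CPM at RT. Each cold library was above each RT library. Ly6c1 rose in KO (0.55 ± 0.12, adjusted p = 0.00452), also without the 3 RT libraries high in muscle transcripts (0.76, adjusted p = 0.0384), and was at 0.30 ± 0.14 in control (adjusted p = 0.126). Its near-identical copy Ly6c2 had at most 17 counts in a library, and how tags were split between both copies in counting is unknown here.

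Emcn, a sialomucin of veins and capillaries (ENSMUSG00000054690.18, chromosome 3), gave 24.2, 17.9, 22.3 and 17.6 CPM in the 4 libraries of control cold and 29.4 and 36.8 CPM in the pair of control RT. KO mice had 28.2, 26.6, 20.3 and 18.6 CPM after cold and 28.9, 27.0 and 28.9 CPM at RT. The control groups did not overlap and the KO groups did. Emcn fell in control (-0.67 ± 0.21, adjusted p = 0.0271) and was at -0.27 ± 0.19 in KO (adjusted p = 0.336). The control call was lost with DESeq2 (adjusted p = 0.0572), without control cold 2 (0.0568), control cold 4 (0.0575), control RT 1 (0.0566) or control RT 2 (0.196).

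The other 6 surface members did not pass. Cdh5, the VE-cadherin of adherens junctions, gave 117, 53.1, 107 and 148 CPM after cold and 110.4 and 119 CPM at RT in control, and 92.6 to 133 CPM and 81.4 to 125 CPM in KO, with overlap in both genotypes. Cdh5 and Pecam1 are both used as general endothelial markers, and here the former was at -0.12 ± 0.27 in control and 0.13 ± 0.24 in KO where the latter rose. Cldn5, the tight junction claudin, was at 0.58 ± 0.50 in control and 0.96 ± 0.46 in KO, from 4.20 to 21.3 CPM. Icam2, an adhesion molecule for leukocytes, was at 0.22 ± 0.28 in control and 0.53 ± 0.25 in KO. The sialomucins Podxl and Cd34 were at 0.15 ± 0.26 and -0.25 ± 0.20 in control and at -0.03 ± 0.23 and -0.22 ± 0.18 in KO. Plvap, the protein of fenestral diaphragms, was at -0.11 ± 0.41 in control and 0.47 ± 0.41 in KO.

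Of 11 receptors and their partners, S1pr1 and Eng rose in both genotypes. S1pr1, the receptor for sphingosine-1-phosphate that tightens the vessel wall (ENSMUSG00000045092.9, chromosome 3), gave 225, 154, 195 and 248 CPM in the 4 libraries of control cold and 85.1 and 140.4 CPM in the pair of control RT. The KO libraries gave 181, 248, 218 and 168 CPM after cold and 87.1, 109 and 119 CPM at RT. Each cold library was above each RT library. S1pr1 rose 1.83-fold in control (0.87 ± 0.23, adjusted p = 0.0108) and 1.94-fold in KO (0.96 ± 0.20, adjusted p = 0.00305). In control the value was 0.54 without control RT 1 (adjusted p = 0.202) and 0.54 without the 3 RT libraries high in muscle transcripts (adjusted p = 0.226), and in KO it was 0.78 without these 3 (adjusted p = 0.125).

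Eng, the endoglin co-receptor for transforming growth factor beta and bone morphogenetic proteins (ENSMUSG00000026814.17, chromosome 2), gave 39.2, 33.98, 52.0 and 40.9 CPM in the 4 libraries of control cold and 23.0 and 18.1 CPM in the pair of control RT. Among KO libraries the cold ones read 36.7, 61.6, 53.4 and 30.5 CPM and those at RT 22.3, 20.1 and 21.0 CPM. The 5 RT libraries lay below all 8 cold libraries. Eng rose 2.00-fold in control (1.002 ± 0.27, adjusted p = 0.0133) and 2.16-fold in KO (1.11 ± 0.23, adjusted p = 0.00327). The adjusted p in control was 0.0548 without control RT 1 and 0.0826 without control RT 2. Acvrl1, the ALK1 receptor that pairs with Eng, did not pass in control (0.40 ± 0.30, adjusted p = 0.358) or in KO (0.68 ± 0.27, adjusted p = 0.0873), and passed in KO without control RT 1 or control RT 2.

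Tie1, the orphan relative of the angiopoietin receptor (ENSMUSG00000033191.15, chromosome 4), went the other way. Control libraries gave 9.79, 5.56, 17.96 and 11.3 CPM after cold and 24.4 and 23.5 CPM at RT, and KO libraries 11.6, 17.2, 15.2 and 18.6 CPM after cold and 27.9, 25.2 and 21.0 CPM at RT. All 5 RT libraries lay above all 8 cold libraries. Tie1 fell in control (-1.10 ± 0.30, adjusted p = 0.0144, or 0.0958 without control RT 1). In KO the value was -0.65 ± 0.26 (adjusted p = 0.0884). Tie1 passed in KO when only the KO groups were fitted (0.031), and without control cold 2 (0.0479) or control cold 3 (0.0453). Ptprb, the phosphatase that acts on the angiopoietin receptor Tek, was at 0.04 ± 0.16 in control and 0.26 ± 0.14 in KO.

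Adgrl4, an adhesion G protein-coupled receptor (ENSMUSG00000039167.13, chromosome 3), gave 57.5, 90.3, 83.3 and 82.4 CPM in the 4 libraries of KO cold and 42.5, 63.1 and 39.9 CPM in the 3 of KO RT. Control libraries gave 72.0, 61.2, 76.2 and 93.2 CPM after cold and 57.0 and 57.9 CPM at RT. In KO 1 cold library lay within the RT range. Adgrl4 rose in KO (0.70 ± 0.19, adjusted p = 0.0170, or 0.0889 without KO RT 1 and 0.0787 without KO RT 3) and was at 0.39 ± 0.22 in control (adjusted p = 0.194). The other receptors did not pass. Robo4, the receptor that steadies endothelial junctions, was at 0.42 ± 0.30 in control and 0.42 ± 0.26 in KO, and the lectin-like receptors Cd93 and Clec14a at 0.11 ± 0.22 and 0.13 ± 0.34 in control and -0.29 ± 0.19 and -0.37 ± 0.29 in KO. Ramp2, the partner of the adrenomedullin receptor, was at -0.35 ± 0.23 in control and 0.02 ± 0.20 in KO, and it overlaps Vps25 on the same strand.

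In the group of signalling, secreted and transport proteins, Nos3 and Rgcc moved in opposite directions. Nos3, the endothelial nitric oxide synthase (ENSMUSG00000028978.13, chromosome 5), gave 24.8, 17.3, 22.9 and 35.3 CPM in the 4 libraries of control cold and 58.4 and 49.4 CPM in the pair of control RT. KO mice had 26.3, 25.6, 25.9 and 23.7 CPM after cold and 55.7, 64.3 and 39.4 CPM at RT. All 8 cold libraries lay below all 5 RT libraries. Nos3 fell 2.17-fold in control (-1.12 ± 0.23, adjusted p = 0.00230) and 2.09-fold in KO (-1.06 ± 0.20, adjusted p = 0.00183). Without the 3 RT libraries high in muscle transcripts the value was -0.99 in control (adjusted p = 0.0465) and -0.63 in KO (adjusted p = 0.256). Nos3 overlaps Atg9b on the opposite strand, which held 24 counts over the 13 libraries against 844 for Nos3.

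Rgcc, a regulator of the cell cycle enriched in endothelium (ENSMUSG00000022018.8, chromosome 14), gave 751, 922, 738 and 882 CPM in the 4 libraries of control cold and 380.3 and 635 CPM in the pair of control RT. The KO libraries gave 599, 676, 667 and 591 CPM after cold and 447, 441 and 505 CPM at RT. Cold libraries lay above RT libraries within each genotype. Rgcc rose in control (0.70 ± 0.17, adjusted p = 0.00670) and in KO (0.45 ± 0.15, adjusted p = 0.0428). In control the value fell to 0.37 without control RT 1 (adjusted p = 0.178) and to 0.37 without the 3 RT libraries high in muscle transcripts (0.217). In KO it did not pass under library totals (0.0861), without KO cold 1 (0.0604), KO cold 2 (0.0962) or KO cold 3 (0.0954), or without KO RT 1 (0.140), KO RT 2 (0.134) or KO RT 3 (0.0546).

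The other 5 members of that group did not pass. Mmrn2, a matrix protein that binds Clec14a and Cd93, gave 16.1, 15.4, 27.3 and 21.2 CPM after cold and 31.7 and 28.9 CPM at RT in control, without overlap (-0.61 ± 0.24, adjusted p = 0.0752), and passed without control cold 3. Aqp1, the water channel, was at 0.13 ± 0.19 in control and 0.46 ± 0.17 in KO (adjusted p = 0.0731), and passed in KO without control cold 2 or KO RT 2. Rasip1, which acts in vessel lumen formation, was at 0.49 ± 0.29 in control and 0.63 ± 0.26 in KO (adjusted p = 0.0996), and passed in KO without KO cold 1. Aqp1 and Rasip1 also passed in KO when only the KO groups were fitted. Egfl7, a secreted endothelial factor, was at -0.30 ± 0.23 in control and -0.14 ± 0.21 in KO, and it overlaps the abundant adipocyte gene Agpat2 on the opposite strand. Vwf, the clotting glycoprotein, had 1 to 16 counts in a library, and its value of 0.72 ± 0.80 in control leaves its direction unresolved at this depth.

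Promoter sequences were listed for 16 of the 35 members (RefSeq, GRCm38.p6, from 250 bases before to 50 after a gene's first listed start, 300 bases). They are shown for 2 members that rose in cold in both genotypes, Eng (chr2:32646345-32646644, plus strand) and Rgcc (chr14:79301586-79301885, minus strand), and for 2 that fell in control, Tie1 (chr4:118489800-118490099, minus strand) and Emcn (chr3:137340828-137341127, plus strand). Each is written 5′ to 3′ in the direction of the gene. Capitals mark AGGAAG (a core of ETS factor sites), AACAAT (SOX), CCACCC (KLF) and TGACG (the core of cyclic AMP response elements) on either strand.
Eng: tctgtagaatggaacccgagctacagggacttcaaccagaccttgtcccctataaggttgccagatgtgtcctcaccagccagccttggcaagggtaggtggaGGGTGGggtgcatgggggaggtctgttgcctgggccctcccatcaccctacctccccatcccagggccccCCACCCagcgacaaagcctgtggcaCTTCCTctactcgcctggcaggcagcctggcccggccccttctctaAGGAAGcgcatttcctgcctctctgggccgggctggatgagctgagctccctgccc
Rgcc: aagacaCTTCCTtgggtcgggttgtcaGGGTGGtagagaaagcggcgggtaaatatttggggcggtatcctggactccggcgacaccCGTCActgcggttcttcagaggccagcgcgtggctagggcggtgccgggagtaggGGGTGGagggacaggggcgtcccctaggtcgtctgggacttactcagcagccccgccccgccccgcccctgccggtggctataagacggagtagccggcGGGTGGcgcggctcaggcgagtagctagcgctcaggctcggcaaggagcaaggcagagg
Tie1: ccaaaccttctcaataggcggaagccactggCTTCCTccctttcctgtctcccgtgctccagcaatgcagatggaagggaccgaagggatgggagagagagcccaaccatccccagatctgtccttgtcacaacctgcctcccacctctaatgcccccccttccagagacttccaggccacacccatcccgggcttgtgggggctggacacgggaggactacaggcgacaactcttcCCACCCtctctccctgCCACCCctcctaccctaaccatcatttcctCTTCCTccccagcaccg
Emcn: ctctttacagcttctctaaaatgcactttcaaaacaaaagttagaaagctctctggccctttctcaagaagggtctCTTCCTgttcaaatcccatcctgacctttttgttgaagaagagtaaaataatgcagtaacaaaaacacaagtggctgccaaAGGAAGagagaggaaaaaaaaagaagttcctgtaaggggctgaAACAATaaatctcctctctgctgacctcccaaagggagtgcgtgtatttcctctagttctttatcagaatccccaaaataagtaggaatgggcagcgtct
AGGAAG was present in all 4, with 2 copies in Eng, Tie1 and Emcn and 1 in Rgcc. It was found in 10 of the 16 listed member promoters (62.5%) and in 35.1% of 27025 promoters. CCACCC was in Eng, Rgcc and Tie1, in 8 of 16 members (50%) and in 30.9% of all. AACAAT was in Emcn alone of the 16, against 10.9% of all. TGACG was in Rgcc of the 4 shown, in 4 of 16 members (25.0%) and in 21.0% of all. A match is a string of letters, and no binding was measured here.

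**Figure D2:**
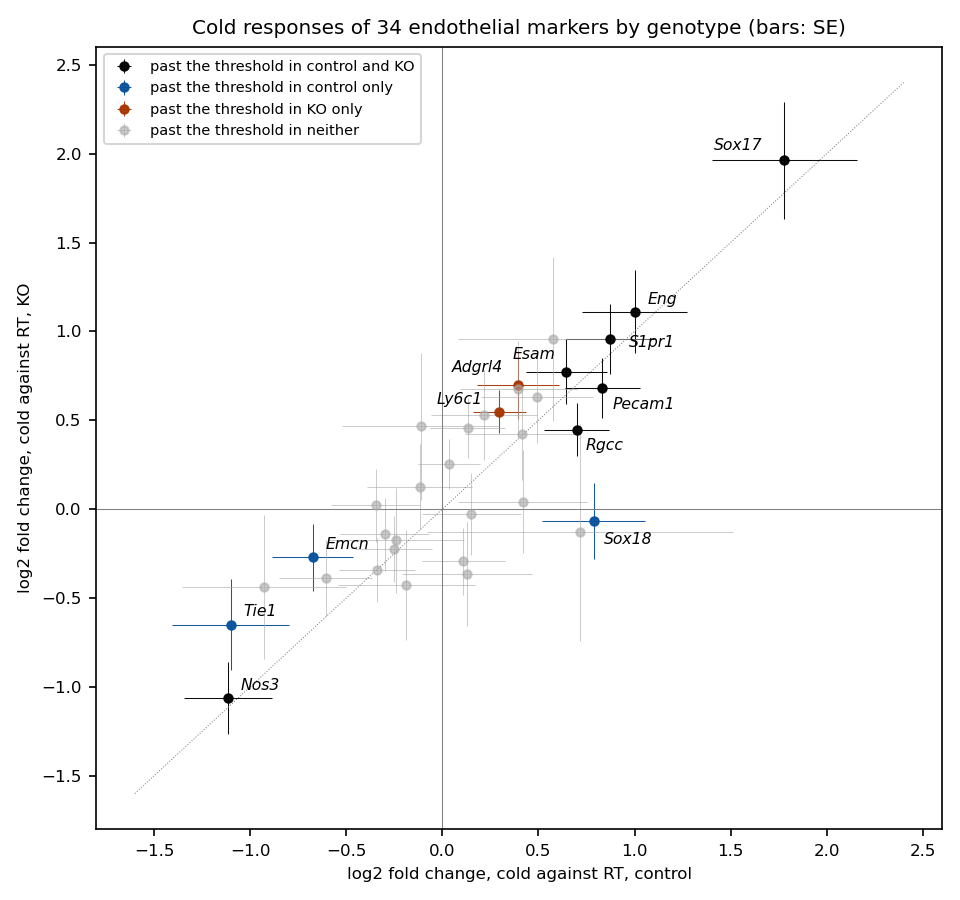
Log2 fold change of cold over RT in control (x axis) and in KO (y axis) for the 34 tested markers, with standard errors as bars. Colours give the genotype in which a marker passed, and the dotted line marks equal values. The 7 markers that passed in both genotypes lie near that line, and Sox18 (0.79 in control, -0.07 in KO) lies farthest from it among the 12 named.

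The next comparison asks whether the cold response of the markers depended on Stim1 and Stim2 in adipocytes. None of the 34 tested members passed the test of the difference between both responses with edgeR, and 2 of all 11073 genes did (0.0181%). At an unadjusted p under 0.05, 1 member was found, against 8.25% of all genes, and DESeq2 called none of the members. That member was Sox18, whose cold response was lower in KO (difference of log2 fold changes -0.86 ± 0.34, adjusted p = 0.520). For Sox17 the difference was 0.18 with an interval of 2 standard errors from -0.81 to 1.18, and for Nos3 it was 0.05 (-0.57 to 0.68). For Tie1 it was 0.45 (-0.35 to 1.25), for Emcn 0.40 (-0.16 to 0.97), for Ly6c1 0.25 (-0.11 to 0.61) and for Adgrl4 0.30 (-0.27 to 0.88). These intervals include both no difference and differences as large as the responses of several members, so likeness of the responses was not shown.

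In cold, no endothelial marker differed between KO and control past the threshold. Of 34 tested members, edgeR called none and DESeq2 called none, while 5.93% of all genes passed with edgeR (270 higher and 387 lower in KO, or 472 and 264 under library totals). At an unadjusted p under 0.05, 1 member was found, against 20.1% of all genes. The median log2 fold change, KO over control, was 0.01 for the members and -0.01 for all genes. The members' median was -0.12 without control cold 2 and -0.05 without KO cold 2. In the fit over all libraries the median size of the change without its sign was 0.14 for the members and 0.22 for all genes. The 1 member was Rgcc, whose 4 KO libraries (591 to 676 CPM) lay below the 4 control libraries (738 to 922 CPM). The difference was -0.38 ± 0.13 (adjusted p = 0.111). Rgcc passed without control RT 1 (0.0422) or without control RT 2 (0.0424), which are not in this contrast, and leaving them out also changed the number of genes tested (11541 and 11597). The cause of these calls was not tested.

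For general markers the intervals of 2 standard errors bound the genotype difference in cold. Pecam1 was at -0.10 (-0.41 to 0.20), Cdh5 at 0.09 (-0.36 to 0.54), Nos3 at 0.03 (-0.39 to 0.45) and S1pr1 at -0.01 (-0.36 to 0.34). Sox17 was at 0.05 (-0.47 to 0.58) and Eng at 0.14 (-0.27 to 0.54). The highest value was that of Tie1, at 0.50 ± 0.27 (adjusted p = 0.332), with overlapping libraries. The widest interval was that of Vwf, from -1.13 to 1.24.

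**Figure D3:**
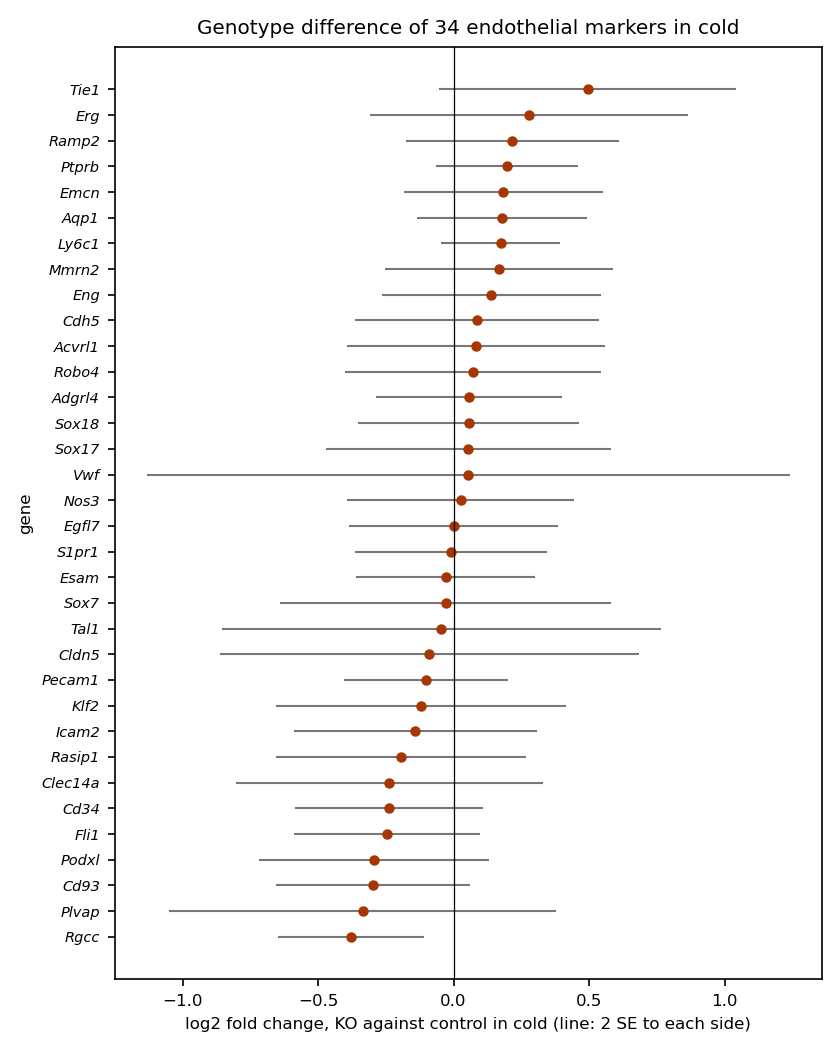
Log2 fold change of KO over control in cold (x axis) for each of 34 tested markers (y axis, in order of the value). Points are estimates and lines reach 2 standard errors to each side. Each line but that of Rgcc, at -0.38, crosses 0.

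At RT, none of the 34 members passed between KO and control with edgeR, as was the case for all genes (0.0% called), and DESeq2 called 8 genes, none of them a member. At an unadjusted p under 0.05, 1 member was found, against 3.12% of all genes. It was Sox18, at 32.9, 35.6 and 27.3 CPM in KO and 21.2 and 12.1 CPM in control, without overlap (0.91 ± 0.28, adjusted p = 1). Plvap was at 4.05, 4.02 and 4.72 CPM in KO and 7.82 and 8.44 CPM in control (-0.91 ± 0.46, adjusted p = 1), at 5 to 19 counts in any library. Vwf, Cd34, Tal1, Plvap and Emcn were also without overlap between genotypes at RT, each at an unadjusted p above 0.05, so lack of overlap is not particular to Sox18. The share of all genes without such overlap was not counted, so these cases are no result about the markers. With 2 control libraries this comparison was less precise than that in cold: the median standard error of the members was 0.27, against 0.21. The comparisons share libraries, the control RT pair entering both the cold response of control and the genotype difference at RT.

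The summed level of the 35 members gives the weight of the set in the tissue's mRNA. In control it reached 2978, 2515, 2806 and 3340.3 CPM after cold and 2009 and 2535 CPM at RT. In KO it reached 2491, 3119.8, 2741 and 2530.0 CPM after cold and 1974, 2423 and 2053 CPM at RT. Cold and RT means were 2909.7 ± 345 CPM (SD, n = 4) and 2272 ± 372 CPM (n = 2) in control, and 2720.5 ± 288 CPM (n = 4) and 2149.9 ± 239 CPM (n = 3) in KO. Control cold 2 lay below control RT 2, so the control groups overlapped, and the KO groups did not. Under library totals the KO groups overlapped as well, with 2428 CPM as the lowest cold and 2597 CPM as the highest RT sum. Rgcc made up 18.2% to 36.6% of the sum. Without Rgcc the mean was 2086 CPM after cold and 1765 CPM at RT in control, and 2087 CPM and 1686 CPM in KO, and the KO groups then overlapped (lowest cold 1893 CPM, highest RT 1982 CPM).

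In some libraries most markers deviated the same way from their group. In KO cold 2, 32 of 35 members were above the mean of their group, with a median log2 deviation of 0.23. In control cold 2, 7 of 35 were above it (median -0.32), and in KO cold 4 also 7 of 35 (median -0.15). At RT, KO RT 2 had 25 of 35 above its group's mean. Control cold 2 also had the highest summed macrophage (287 CPM), fibroblast (1498 CPM) and lymphatic (55.6 CPM) levels of its group. The part of these in the spread of the endothelial markers was not tested.

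**Figure D4:**
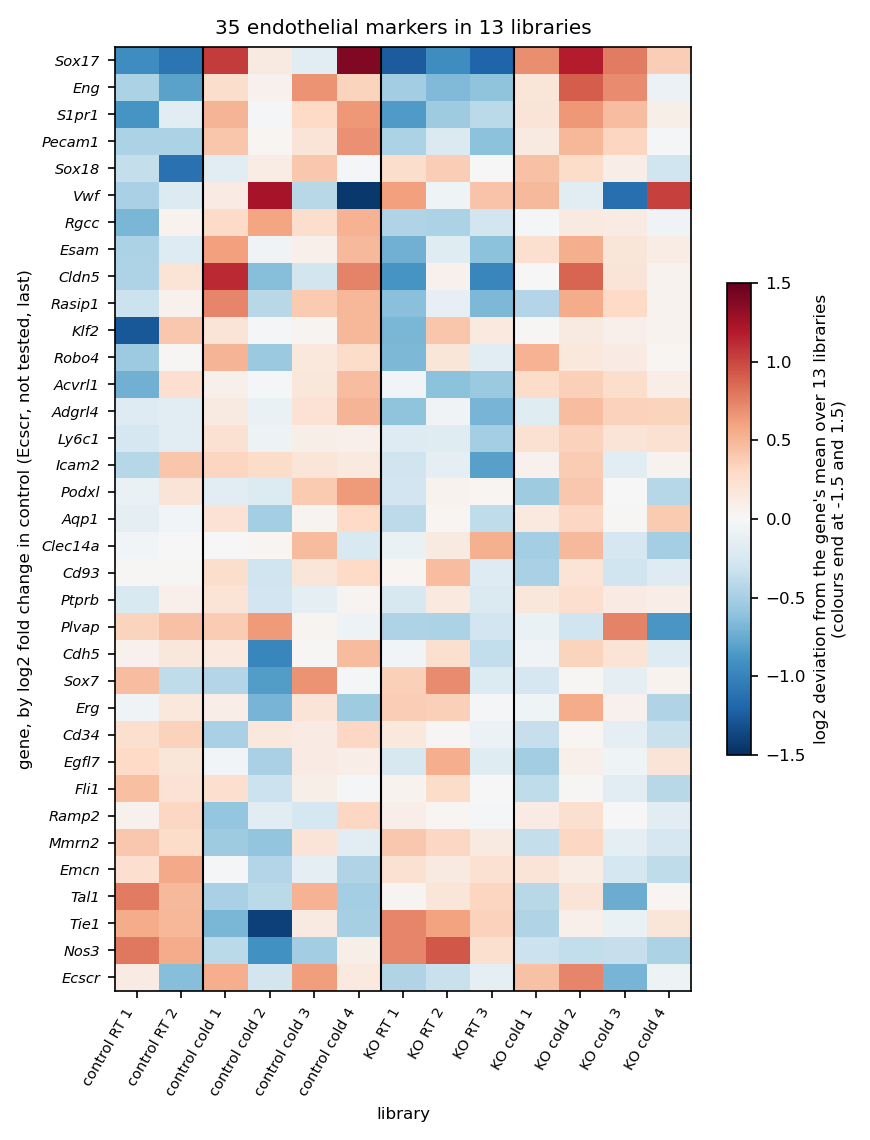
Log2 deviation of each marker (y axis) from its mean over 13 libraries (x axis, black lines between groups), with red above and blue below that mean. Members are ordered by their log2 fold change in control, and Ecscr, which was not tested, is last. Sox17, Eng, S1pr1 and Pecam1 are above their mean in most cold libraries, and Tie1 and Nos3 in the RT libraries.

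Further genes of endothelium, 46 symbols that are not members, were counted beside them. Among these 46, Fabp4 is also an adipocyte marker, and it passed in cold against RT in neither genotype. Of 40 tested, 3 rose and 6 fell in control (22.5%, against 25.2% of all genes) and 4 rose and 8 fell in KO (30%, against 18.9% of all genes). Gpihbp1, the protein that anchors lipoprotein lipase to capillaries, rose from 54.1 ± 20.6 to 113 ± 12.9 CPM in control (1.08 ± 0.21, adjusted p = 0.00149) and from 53.5 ± 6.22 to 119 ± 17.4 CPM in KO (1.16 ± 0.18, adjusted p = 0.000329). Cd36, a fatty acid transporter that adipocytes also make, rose in both (0.40 ± 0.11, adjusted p = 0.0118, and 0.38 ± 0.09, adjusted p = 0.00869). Tcf15, a factor of fatty acid handling capillaries, fell in both (-1.22 ± 0.26, adjusted p = 0.00294, and -1.10 ± 0.23, adjusted p = 0.00315). Lmo2 fell in both (-0.963, adjusted p = 0.015, and -0.755, adjusted p = 0.037) and Elk3 in control (-1.04, adjusted p = 0.0102). Ece1 (-0.461, adjusted p = 0.023), Sparcl1 (-0.454, adjusted p = 0.020) and Tm4sf1 (-0.619, adjusted p = 0.0103) fell in KO. In control the same genes were at -0.035, -0.282 and 0.213 and did not pass. The peptide Apln fell in both (-2.54 ± 0.53 and -3.26 ± 0.51), and so did its receptor Aplnr. Aplnr had 0 counts over the control cold libraries against 30 at RT, of which 27 were in control RT 1 and 3 in control RT 2. Its call in KO was lost under the replicate block (0.0598), without KO cold 1 (0.0561) and without KO RT 2 (0.0510), and the value of Apln in control was -1.24 without control RT 1. Without control RT 1, Apln (adjusted p = 0.239), Aplnr (0.0932), Cd36 (0.185), Ednrb (0.0692), Elk3 (0.151), Gpihbp1 (0.0511) and Lmo2 (0.0860) no longer passed in control, and Tcf15 and Tspan18 did. Without the 3 RT libraries high in muscle transcripts, Cd36, Elk3, Lmo2, Ece1, Sparcl1 and Tm4sf1 passed in neither genotype. In that setting Apln and Gpihbp1 passed in KO alone, and Tcf15 and Tspan18 in both. The growth factor receptors Kdr (0.32 ± 0.21 and 0.35 ± 0.18) and Flt1 (0.11 ± 0.17 and 0.24 ± 0.15) did not pass.

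Tspan18, a tetraspanin that supports calcium entry in endothelium, was the 1 gene of these 40 that differed between genotypes in cold. After cold its mean was 30.3 ± 17.3 CPM in control and 82.6 ± 24.3 CPM in KO (1.44 ± 0.30, adjusted p = 0.00864), and at RT 262 ± 34.99 and 255 ± 24.0 CPM. It fell in cold in both genotypes (-3.11 ± 0.33, adjusted p = 1.03e-05, and -1.62 ± 0.28, adjusted p = 0.000753), and the difference of these responses did not pass (1.48 ± 0.44, adjusted p = 0.318). Whether the tags came from endothelium cannot be read from bulk tissue.

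Lists for vessel types and for the cells around vessels were counted by the same tests. Among all genes, 12.7% were higher and 12.6% lower in cold in control, and 9.43% and 9.45% in KO. Of 8 arterial genes tested, 1 passed in each genotype. Efnb2, an ephrin of arteries, fell in control (-1.01 ± 0.34, adjusted p = 0.0383), and lost the call in 10 of 20 alternatives, with DESeq2, under the block and without either control RT library among them. Hey2, a Notch target, rose in KO (1.42 ± 0.49, adjusted p = 0.0497), and lost the call in 11 of 20, with DESeq2, under library totals and without any of the 3 KO RT libraries among them. Of 4 venous genes, Lrg1 fell in both. Nr2f2, the factor of vein identity, fell in KO (-0.48 ± 0.16, adjusted p = 0.0452), and lost the call in 13 of 20, with DESeq2 (0.0583), under the block (0.1115) and with no filter (0.0709) among them. Of 3 lymphatic genes, Lyve1, the hyaluronan receptor that macrophages also carry, rose in both (2.10 ± 0.46, adjusted p = 0.00358, and 2.66 ± 0.46, adjusted p = 0.000694) and Mmrn1 in control, where it was lost with DESeq2 (0.0607) and without either control RT library (0.159 and 0.1199). The Lyve1 call in KO was lost without the 3 RT libraries high in muscle transcripts (0.0535). Prox1, the factor that defines lymphatic endothelium, had too few counts to be tested, 6 to 10 in a group. Of 14 mural cell genes, Cspg4, Mcam and Notch3 fell in both genotypes (21.4%) and none rose. Among all genes, 13% passed alike in both, rises and falls together, and the share that fell in both was not counted apart. Mcam is also made by endothelium. The summed mural level was 649 to 816 CPM after cold and 894 to 960.0 CPM at RT in control, and 660 to 825 and 757 to 1049.5 CPM in KO.

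Other cell types whose markers could accompany the endothelial ones gave these values. Among all genes, 12.6% were lower in cold in control and 9.45% in KO. None of 8 macrophage genes passed in cold against RT with edgeR, and their sum was 99.7 to 287 CPM after cold and 148 to 194 CPM at RT in control, and 107 to 141 and 117 to 175 CPM in KO, with overlap in both. Of 10 skeletal muscle genes, 7 fell in control and 2 in KO, with the sums given above. Of 8 fibroblast genes, none passed in control, 5 fell in KO (62.5%) and none passed the test of the difference of responses. Their sum was 520 to 1498 CPM after cold and 902 to 939 CPM at RT in control. In KO it was 565 to 657 CPM and 685 to 1370 CPM, with the highest value in KO RT 1. Of 3 leukocyte genes, 3 fell in control (Ptprc, S100a8 and S100a9) and 1 in KO (S100a9), and Cd79a was at 0 counts throughout. None of 5 erythrocyte genes passed. Of 2 platelet genes, Pf4 fell in KO (adjusted p = 0.0497), and Gp1bb was at 0. Neither of the mesothelial genes Msln and Upk3b had a count. The part of these cells in the endothelial values was not tested, apart from the settings without muscle-rich libraries above.

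**Figure D5:**
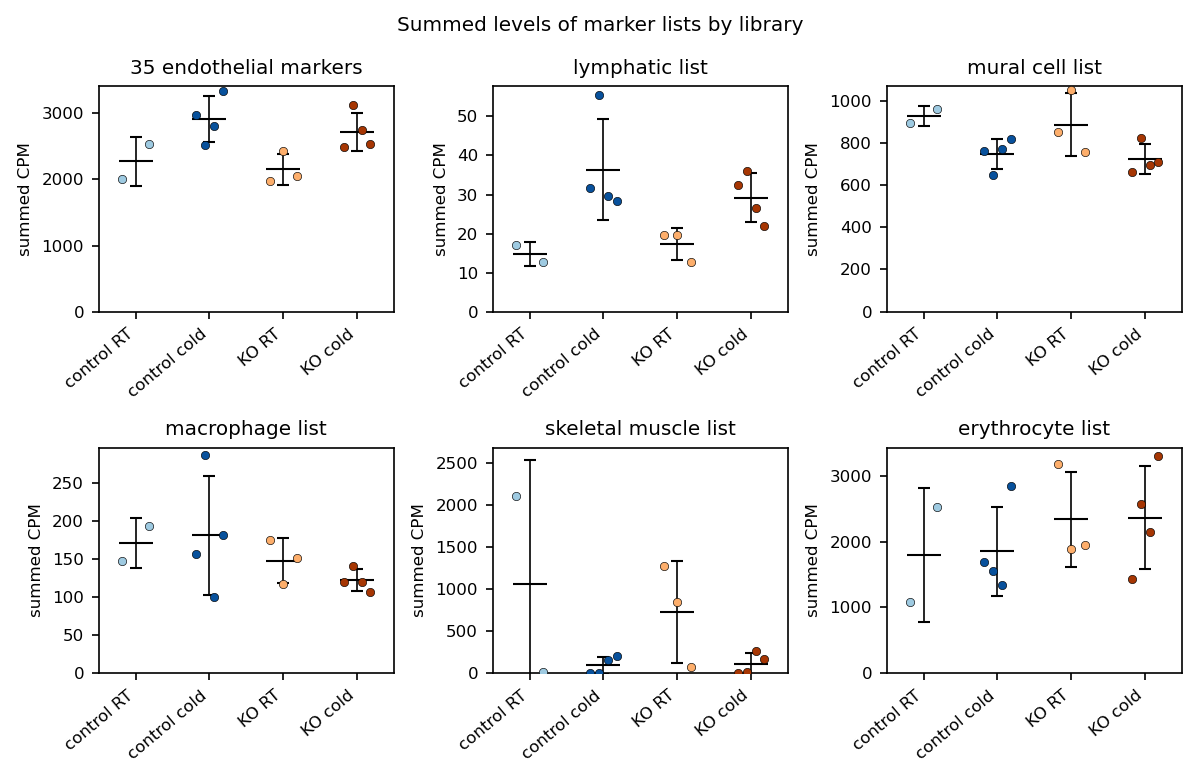
Summed CPM (y axis, from 0) of the 35 markers and of 5 lists for other cells, by group (x axis). Points are libraries, horizontal lines means and bars SD, drawn down to 0 at most. The muscle sum reaches 2106 CPM in control RT 1, and the 5 RT libraries hold its 3 highest values.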

How the data were processed

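Brown adipose tissue RNA was measured by QuantSeq 3′ mRNA sequencing in 13 libraries of 4 groups. The authors deposited whole-number counts of tags per Ensembl gene (release 103) for each library. The submitters' processing notes name the build GRCm39 and, with no role or order, the tools HTSeq 0.12.3, STAR 2.7.10b, UMI-tools 1.1.2 and Trim Galore 0.6.7, beside limma and edgeR. The labels and notes do not say whether unique molecular identifiers were collapsed or counting used strand. Of 55632 lines, 275 repeated lines with equal counts were dropped, and no column of per-sample values was left unmapped. The members, lists and tests were chosen with earlier results of these data known.

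From the counts, edgeR 4.0.16 in R 4.3.3 (limma 3.58.1) scaled libraries by TMM, kept genes by filterByExpr (minimum count 10), and tested 5 contrasts by the two-sided quasi-likelihood test in 1 fit over 13 libraries. That left 11073 genes and a biological coefficient of variation of 16.1%. P-values were adjusted by Benjamini-Hochberg over all genes tested, with 0.05 as threshold. The standard error is the size of the log2 fold change from the coefficients before edgeR's shrinkage, divided by the root of the F statistic. The log2 fold changes printed are those of the test, after shrinkage. The script was tested on simulated data with known changes. Library totals ran from 1570684 to 2016178 counts, and 9.43% to 13.4% of counts were mitochondrial. Counting limits the precision of members with few counts. No libraries were duplicates: the chi-square per degree of freedom between replicates was 1.97 to 6.66. All libraries carry 1 batch label.

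Members past the threshold in any contrast are given with each library's value, and the others by role. Of the genes of other lists, a part of those that pass or have the smallest p are named. Alternatives were DESeq2 1.42.0, 2 other scalings, no filter beyond 10 counts, a replicate block, only the groups compared, and leaving out each library. Leaving out the 3 muscle-rich RT libraries was chosen after seeing the data. Promoters came from RefSeq (GRCm38.p6). One gene of the macrophage list is not reported here, and the sums leave it out.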

Additional observations from a re-analysis of the deposited data

Results flagged for a closer look

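One value stood apart from its group. Tal1, the factor of blood and endothelial precursors, was at 6.81 CPM in control cold 3, where the other 3 libraries of that group lay between 2.82 and 3.09 CPM. The gap made up 0.933 of the range of the group, above Dixon's critical value for 4 samples at the 95% level. In all, 72 groups of 4 were looked at, and chance flags about 1 in 20 such groups.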

How the results depend on the processing

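Of the 5 counts of called members, those for the difference of cold responses and for KO against control at RT were 0 under each alternative run. In cold, KO against control gave 0 to 1 members when single libraries were left out, the 1 being Rgcc. For cold against RT in control the count of 10 fell to 6 when only the groups compared were fitted (1685 of all genes in place of 2793), and to 1 without the 3 RT libraries high in muscle transcripts (870 of all genes), which also removes samples from the fit. Leaving out single libraries gave 3 to 11, with 3 without control RT 1 (1067 of all genes). For cold against RT in KO the count of 9 fell to 1 without those 3 libraries (452 of all genes), and was 6 to 11 without single libraries, with 6 without KO RT 1 (1219 of all genes). When only the KO groups were fitted, the count in KO rose to 12 of 31 members tested (2523 of all genes in place of 2090). Aqp1, Rasip1 and Tie1 were the members added. DESeq2 called 8 genes between genotypes at RT where edgeR called 0, and 28 genes for the difference of responses where edgeR called 2, none of them a member. With the replicate number as a block, 9 members passed in control and 8 in KO, and 0 in each other comparison, with 2122, 1629, 564, 0 and 0 of all genes. Same-numbered libraries of different groups had correlated deviations of -0.226 to 0.333, and other pairs -0.333 to 0.301, so the numbers were not taken to pair libraries. Under the block, Emcn in control (adjusted p = 0.0959) and Rgcc in KO (adjusted p = 0.0540) no longer passed. Of 1480 values of single genes under alternatives, 1330 kept their side of the threshold, 143 lost the call, 7 gained it and 0 reversed a call, and 12 of those called in neither fit changed sign. The difference of responses needs all 4 groups, so it has no value with only the groups compared. Depth limits members with few counts, such as Ecscr (60 in all), Vwf (98), Tal1 (110), Plvap (145) and Erg (230).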

Other observations

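Several endothelial genes outside the 35 markers also moved with cold. Ednrb, a receptor for endothelin, rose in control (log2 1.32 ± 0.29, adjusted p = 0.00375 by edgeR, or 0.0692 without control RT 1) and in KO (1.17 ± 0.26, adjusted p = 0.00432). Notch4, the Notch receptor of endothelium, rose in KO (1.21 ± 0.26, adjusted p = 0.00386) under each of 20 alternatives. In control Notch4 was at 0.43 (adjusted p = 0.321). None of the 40 further endothelial genes tested passed the test of the difference of responses. Lrg1, a secreted glycoprotein of venules, fell in control (-0.81 ± 0.22, adjusted p = 0.0142, or 0.0645 without control RT 1 and 0.0690 without control RT 2) and in KO (-0.95 ± 0.20, adjusted p = 0.00314). Without the 3 RT libraries high in muscle transcripts, Ednrb and Lrg1 passed in neither genotype. Cspg4, the NG2 proteoglycan of pericytes, fell in both (-2.20 ± 0.26, adjusted p = 3.18e-05, and -1.85 ± 0.23, adjusted p = 5.03e-05). In cold, Des, the desmin of muscle cells and pericytes, was lower in KO than in control (-1.13 ± 0.26, adjusted p = 0.0182). The fibroblast genes Col1a1, Col1a2, Col3a1, Lum and Pdgfra fell with cold in KO. None of the 8 fibroblast genes tested passed in control or in the test of the difference of responses.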
